A study of Arabidopsis thaliana with 18 samples.

Results

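Open flowers of Arabidopsis thaliana plants that overexpress LEJ1 were compared with open flowers of wild-type plants on Affymetrix ATH1 arrays. The 6 arrays are those whose titles name the overexpressor (OE) or the wild type (WT) and open flowers, 3 of each, out of 18 in the series. Flowers of both genotypes came from plants 5 weeks old and were at floral stages 13 to 14, when the anthers shed their pollen, and 5 µg of total RNA went into each labelling. The OE plants carry AtLEJ1 behind the 35S promoter of cauliflower mosaic virus, which is active in most cell types, and the series' design names 1 such line, 35S:AtLEJ1/5-8. A value for this group is thus a value for 1 transgenic line. The remaining 12 arrays hold open flowers of the atlej1 mutant (KO) and unopened buds of floral stages 1 to 12 from all 3 genotypes, 3 arrays each. They enter here through the shared estimate of spread and as comparisons for the OE genes. Genotypes and stages were taken from the sample titles. The growth text of all 18 samples speaks of wild-type plants, which goes against the titles of 12. One description is shared by all 18, that of unopened flowers from wild-type plants, and it goes against the titles of 15, among them all 6 arrays compared here. No probe set in the annotation used names LEJ1 itself, so the level of the transgene was not checked.

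LEJ1 is a chloroplast protein made of a pair of CBS domains, also known as CBSX2. In Arabidopsis such proteins activate thioredoxins, small proteins that reduce disulfide bonds of other proteins in the plastid. At anthesis the anther wall, whose endothecium has laid down lignified thickenings, splits open, petals and filaments elongate, the nectaries secrete and the pistil receives pollen. Jasmonate is the hormone best known for controlling anther opening, and peroxidases take part in lignification with hydrogen peroxide.

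Each array gives 1 linear intensity per probe set, and medians lay between 202 and 207 on the OE arrays and between 208 and 217 on the WT arrays. A probe set was taken as dim where it lay at or below the 40th percentile of its array, which was 116 to 121 intensity units on the OE arrays and 118 to 125 on the WT arrays. Among marker genes, the nectary sugar transporter gene SWEET9 averaged 5230.1 ± 417 in OE and 4329.9 ± 1436 in WT (SD, n = 3 arrays each). On the tapetum list A9, AMS and SPL were dim in both groups, of which SPL is not particular to the tapetum. No petal or stamen identity gene was among the single-gene probe sets tested. The summed level of 7 mature pollen markers ran from 3587 to 3853 in OE and from 3013 to 3213 in WT, so the groups did not overlap, although none of the 7 passed limma's test and 1 had an unadjusted p under 0.05. That of the 6 tested genes on the tapetum list ran from 675 to 1086 in OE and from 961 to 1142 in WT. Their log2 changes lay between -0.53 and 0.97, none was called and 1 had an unadjusted p under 0.05. The part of these marker levels in the results was not tested, and in whole flowers fewer cells of a type and less RNA per cell cannot be told apart. RNA integrity, read from control transcripts as the mean log2 of 3' over 5' signal, was 1.11 ± 0.108 in OE and 1.13 ± 0.0875 in WT (SD, n = 3; exact two-sided permutation p = 0.9, where 0.1 is the smallest possible).

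In open flowers 216 of 22745 tested probe sets differed between OE and WT (0.95%), of which 65 were higher (0.286%) and 151 lower (0.664%) in OE. The lower ones changed more, with a median log2 change of -1.36 against 0.91 for the higher ones, and 107 of the 131 probe sets that changed at least 2-fold were lower in OE. At 4-fold or more there were 35 lower and 3 higher. Of the 151 lower probe sets 75 were dim on all 3 OE arrays, so that the size of these falls is uncertain, and 28 were dim on all 3 WT arrays. In neither group were 57 of the 216 bright on all 3 arrays, and 48 of these 57 were lower in OE. The arrays of the groups did not overlap for 210 of the 216, against 12.8% of all tested probe sets, and 12.7% of all tested probe sets had an unadjusted p under 0.05. The calls were made on these same arrays, so their non-overlap adds no support to them. A single gene is named for 103 of the 216 (0.767% of the tested single-gene probe sets), with 38 higher (0.283%) and 65 lower (0.484%). These calls come from limma at an adjusted p under 0.05 on log2(intensity + 16), with the replicate number as a block, and the median log2 change over all tested probe sets was -0.012. With arrays centred on their medians there were 91 higher and 131 lower, and the higher share was 41% in place of 30%. Without OE array 1, 2 or 3 the count was 122, 90 or 87, and without WT array 2 or 3 it was 116 or 88.

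**Figure D1:**
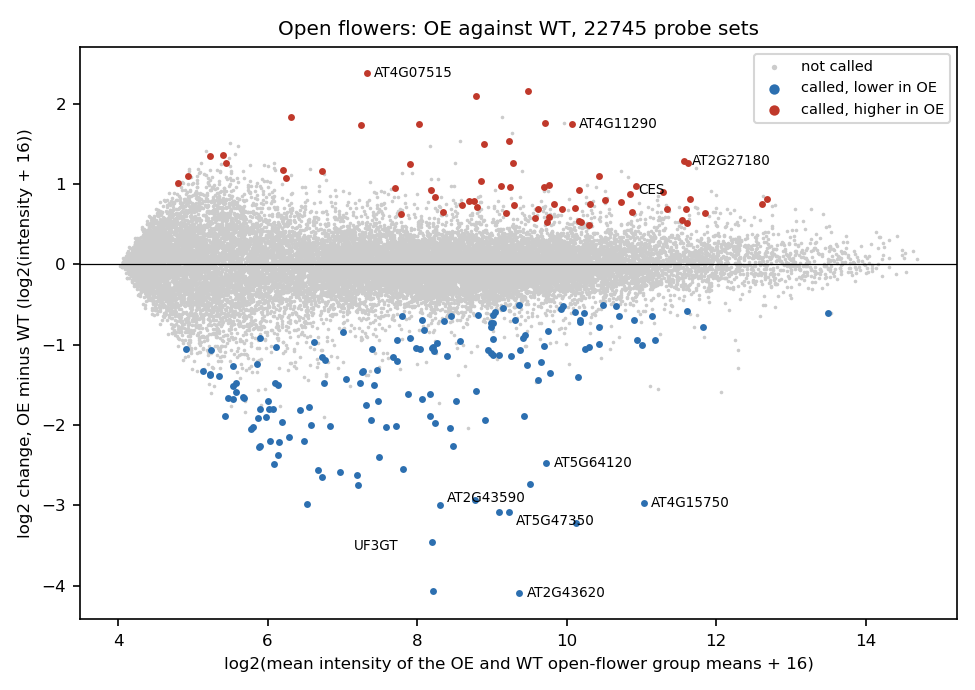
Log2 change, OE minus WT open flowers (y axis), against log2(mean of the OE and WT group mean intensities + 16) (x axis), with 1 point per tested probe set; the 65 called higher are red and the 151 called lower are blue. Blue points reach further from 0 than red ones: the largest named fall, AT2G43620, lies at -4.09 and the largest named rise, AT4G07515, at 2.38.

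The largest named fall was that of a chitinase-family gene, and 4 neighbouring members of that family fell together. Chitinases cut chitin, a polymer of fungal cell walls, and plants make many of them as defence proteins. Of 24 genes listed for the chitinase families 15 were tested, and 4 fell while none rose (26.7% called, against 0.767% of all single-gene probe sets tested). The list was chosen with earlier results of these data known, so this share is a description and not a test of the family. The median log2 change over the 15 was -0.25, against 0.0021 over the single-gene probe sets, and 11 of them were dim on every OE array. With 1 array left out the 4 calls stayed, while the median was -0.54 without OE array 1, -0.43 without OE array 2, -0.45 without WT array 2, -0.13 without OE array 3 and -0.16 without WT array 3.

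AT2G43620 read 81.5, 44.5 and 45.4 in OE flowers, against 1017, 1023 and 1653 in WT flowers. Every WT array was far above every OE array, and the OE values lay in the dim range. The log2 change was -4.09 ± 0.30 (SE, limma adjusted p = 2.2e-06). AT2G43590 read 66.9, 33.0 and 64.8 in OE flowers, against 601, 388 and 642 in WT flowers (log2 change -2.99 ± 0.29, adjusted p = 5.7e-05). CHI, here the symbol of AT2G43570 and not of chalcone isomerase, read 25.8, 86.7 and 44.7 in OE flowers, against 258, 439 and 399 in WT flowers (log2 change -2.54 ± 0.28, adjusted p = 2.1e-04). In both genes all WT arrays were bright and all OE arrays dim, with no overlap. AT2G43610 read 310.5, 338 and 307 in OE flowers, against 881, 471 and 887 in WT flowers. Its OE arrays were bright and close to each other, and the WT array of replicate 2 lay nearest to them (log2 change -1.13 ± 0.17, adjusted p = 0.0038). In the TAIR10.1 gene table AT2G43570 to AT2G43620 are 6 consecutive protein-coding genes of chromosome 2. The other 2, AT2G43580 and AT2G43600, were dim on all 6 arrays, with 3.31 ± 0.590 and 1.80 ± 0.677 in OE against 14.9 ± 10.7 and 1.64 ± 0.699 in WT, and could hardly show a fall. Among members elsewhere in the genome, ChiC averaged 154 ± 57.5 in OE and 298 ± 63.6 in WT with groups that did not overlap, and did not pass (log2 change -0.92 ± 0.25, adjusted p = 0.104). Related neighbouring genes can share sequence that array probes recognise in common, which was not tested. In open KO flowers AT2G43620 averaged 1291 ± 308 and AT2G43590 475 ± 89.6.

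**Figure D2:**
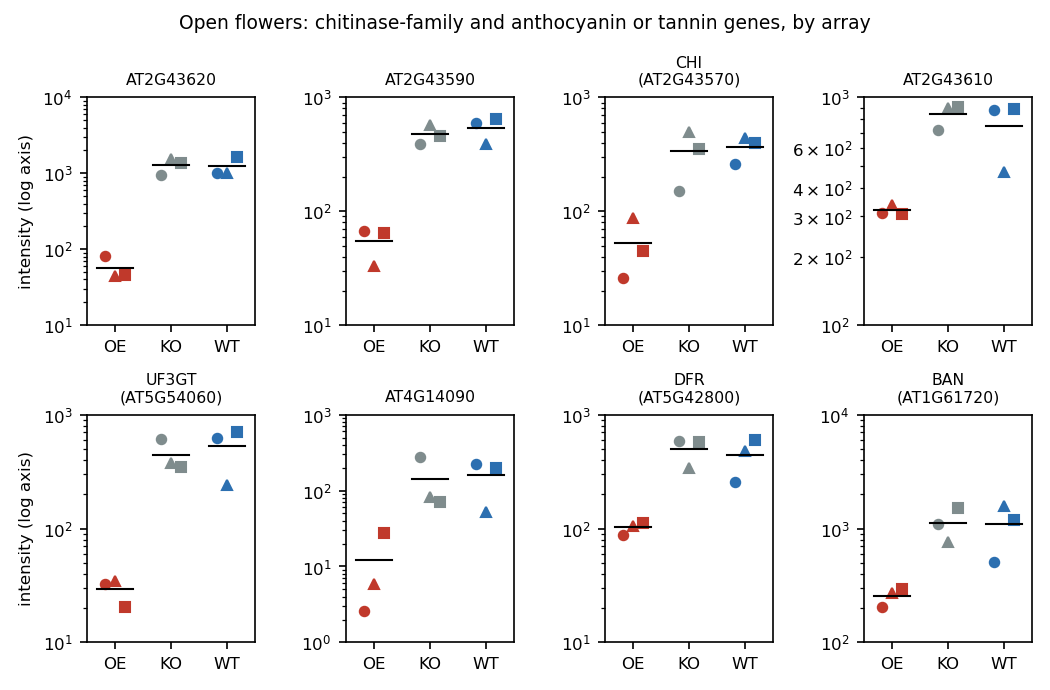
Intensity (log axis) on each array of open flowers for the chitinase-family genes AT2G43620, AT2G43590, CHI and AT2G43610 and the flavonoid genes UF3GT, AT4G14090, DFR and BAN, with OE left, KO in the middle and WT right; circles, triangles and squares are replicates 1, 2 and 3, and lines are group means of 3 arrays. In all 8 genes each OE point lies below every WT point, which was a condition for naming them except for AT2G43610 and AT4G14090.

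Of the tested genes of flavonoid, anthocyanin and tannin synthesis, 4 fell, namely UF3GT, DFR, BAN and AT4G14090. Flavonoids are made from phenylpropanoids; dihydroflavonol reductase leads to the coloured anthocyanidins, which are then decorated with sugars, or are reduced to the units of condensed tannins in the seed coat. Of 33 listed genes only 8 were tested, and the list was chosen with earlier results of these data known, so its shares are descriptions. The 4 that fell make 50% of these, against 0.767% called over all single-gene probe sets, and none rose. An unadjusted p under 0.05 was found for 7 of the 8, against 12.7% of all probe sets, and the median log2 change was -1.82. Without OE array 1 or 2 or WT array 1, 3 members were called, and without WT array 3, 2 were.

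UF3GT (AT5G54060), which adds xylose to anthocyanins, read 32.9, 34.6 and 20.4 in OE flowers, against 630.0, 240.0 and 710.2 in WT flowers. The OE arrays were all dim, and the lowest WT array, that of replicate 2, was still several times brighter than any of them (log2 change -3.46 ± 0.37, adjusted p = 1.9e-04). With a pseudocount of 1 or 64 in place of 16 its log2 change was -4.01 or -2.55. DFR, the gene of dihydroflavonol reductase, read 88.4, 106 and 113 in OE flowers, against 255, 482 and 596 in WT flowers. All 3 OE arrays were dim and all 3 WT arrays bright (log2 change -1.89 ± 0.28, adjusted p = 0.003). BAN, which encodes the anthocyanidin reductase of condensed tannin synthesis and is known from the developing seed coat, read 204, 274 and 293 in OE flowers, against 506, 1562 and 1188 in WT flowers. Here both groups were bright and the WT array of replicate 1 was the one nearest to OE (log2 change -1.88 ± 0.31, adjusted p = 0.0075). Without WT array 3, BAN missed the threshold (adjusted p = 0.0506). BAN also stands among 4 tested markers of carpel, nectary and ovule, whose summed level was 5665 to 6327 in OE and 5252 to 6818 in WT, and the other 3 were not called. AT4G14090, the anthocyanin 5-O-glucosyltransferase gene, read 2.62, 5.89 and 27.6 in OE flowers, against 226, 52.8 and 201 in WT flowers. WT array 2 was dim (log2 change -2.55 ± 0.48, adjusted p = 0.017), and the gene lost its call without OE array 1 or 2 or WT array 1 or 3 (adjusted p 0.0615 to 0.106). With a pseudocount of 1 or 64 its log2 change was -3.92 or -1.46. The members that did not pass were UGT78D2, UGT78D1 and CHIL, with log2 changes of -0.60, -0.27 and -0.49 and limma adjusted p of 0.121, 0.507 and 0.383, and AT5MAT, an anthocyanin malonyltransferase gene, with -1.76 (adjusted p = 0.061). Chalcone synthase and the other early enzymes of the pathway were not among the tested single-gene probe sets.

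Some genes that act on pectin, the gel of the plant cell wall, also fell. Pectin methylesterases remove methyl groups from pectin, and dedicated inhibitor proteins hold them back. AT4G15750, of the inhibitor family, read 242, 549 and 488 in OE flowers, against 1520.3, 5659.5 and 3975 in WT flowers. Its WT arrays spread widely and still lay all above the OE arrays (log2 change -2.96 ± 0.35, adjusted p = 4.1e-04). Of the methylesterases, AT3G10720 read 247, 190.0 and 124 in OE flowers, against 702, 663 and 852 in WT flowers (log2 change -1.93 ± 0.17, adjusted p = 2.2e-05). AT2G47550 read 107, 105 and 122 in OE flowers, against 460.2, 333 and 391 in WT flowers (log2 change -1.68 ± 0.23, adjusted p = 0.0015). In both methylesterase genes the WT arrays were closely grouped and well above every OE array. Over the methylesterase family, a list made after these values were seen, 3 of 43 tested genes fell and none rose (6.98%, against 0.767% of all single-gene probe sets). The median log2 change was 0.06, and between -0.01 and 0.07 with 1 array left out. Without OE array 2 or 3 or WT array 1 or 3, 2 members were called. The 3 include ATPMEPCRB, which read 114, 109 and 109 in OE flowers, against 357, 227 and 262 in WT flowers (log2 change -1.21 ± 0.22, adjusted p = 0.015). Its groups did not overlap and its OE arrays were all dim, and it missed the threshold without OE array 2 or 3 or WT array 1 or 3 (adjusted p 0.0544 to 0.0736).

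Class III peroxidases, secreted enzymes that use hydrogen peroxide on phenolic compounds of the cell wall, moved in both directions. Of 73 listed genes 55 were tested, 2 rose and 4 fell (10.9% called, against 0.767% of all single-gene probe sets). This list, too, was chosen with earlier results of these data known, and its share is no test of the family. The median log2 change was 0.02, and between -0.03 and 0.01 with 1 array left out. Without OE array 2 or WT array 3 the called members were 4. No member that fell was bright on any OE array except AT5G64120, and both that rose were bright in both groups.

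AT4G11290 read 1554, 1765 and 1572 in OE flowers, against 612, 388 and 447 in WT flowers. The OE arrays lay within a narrow band far above the brightest WT array (log2 change 1.75 ± 0.27, adjusted p = 0.0043). AT3G03670 read 749.8, 714 and 578 in OE flowers, against 324, 198 and 189 in WT flowers. Its groups did not overlap (log2 change 1.49 ± 0.27, adjusted p = 0.014), and it was not called without OE array 2 or WT array 2 or 3 (adjusted p 0.0628 to 0.101). AT5G19880, with a larger difference, averaged 855 ± 51.6 in OE and 241 ± 102 in WT, and missed the threshold (log2 change 1.83 ± 0.42, adjusted p = 0.053). The bright members AT5G47000 and AT1G44970 averaged 5580.5 ± 33.0 and 5146 ± 649.6 in OE against 3482 ± 497 and 3329 ± 685 in WT, and neither passed (adjusted p = 0.078 and 0.225).

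Among the falls, AT5G64120 (PRX71) read 295, 229 and 208 in OE flowers, against 1446, 1287 and 1512 in WT flowers. The WT arrays were closely grouped and well above every OE array (log2 change -2.47 ± 0.36, adjusted p = 0.0029). With a pseudocount of 1 it missed the threshold (adjusted p = 0.0528). Its neighbour on chromosome 5, AT5G64110, read 2.29, 2.0 and 15.6 in OE flowers, against 62.8, 94.8 and 148 in WT flowers. OE levels that low carry little information about size, and the log2 change of -2.37 ± 0.30 (adjusted p = 7.5e-04) was -4.15 with a pseudocount of 1 and -1.21 with 64. AT5G39580 averaged 25.7 ± 3.19 in OE and 130.2 ± 39.2 in WT, with 2 of 3 WT arrays in the dim range as well (log2 change -1.78 ± 0.28, adjusted p = 0.0043, and -1.10 with a pseudocount of 64). AT4G36430 averaged 57.3 ± 22.7 in OE and 176 ± 31.6 in WT (log2 change -1.43 ± 0.28, adjusted p = 0.023). It lost its call without OE array 2 or 3 or WT array 1 or 3 (adjusted p 0.0616 to 0.123).

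**Figure D3:**
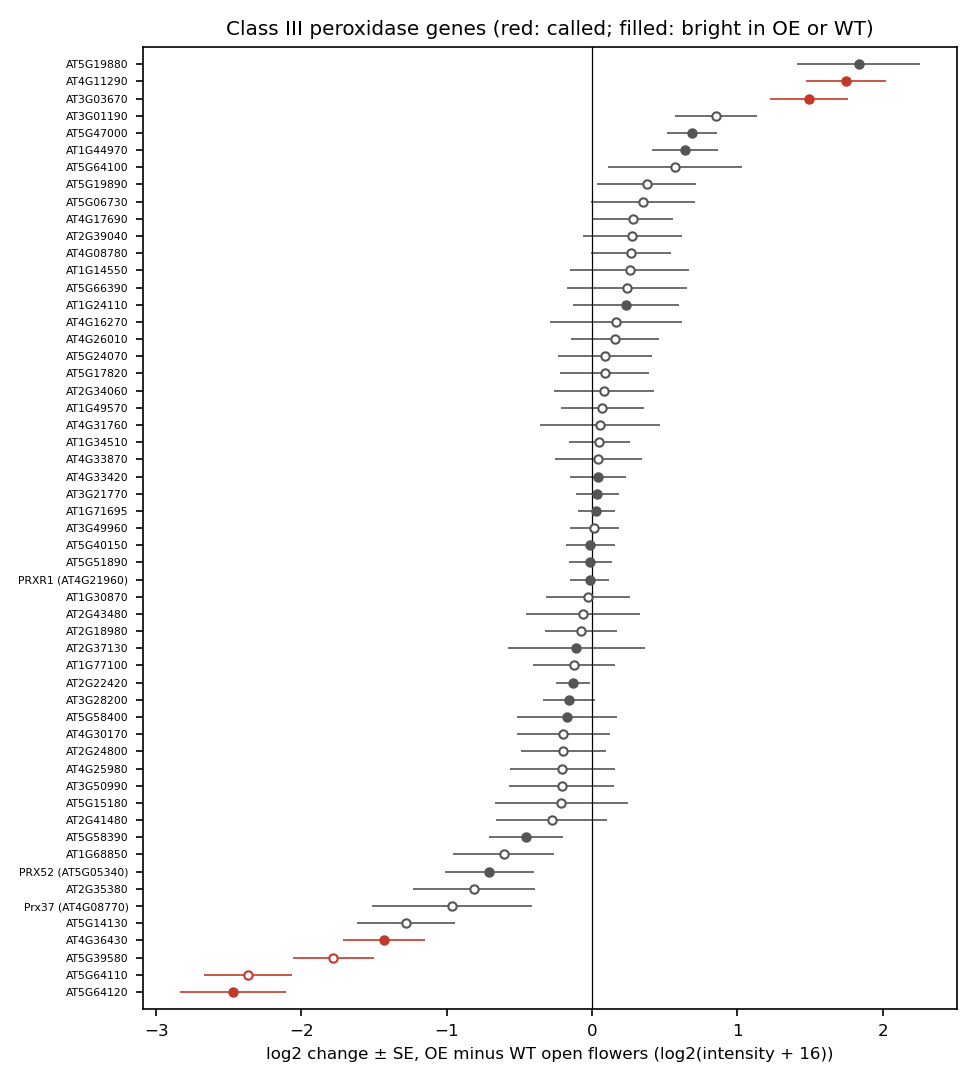
Log2 change, OE minus WT open flowers, with its limma standard error for each of the 55 tested class III peroxidase genes; red marks the 6 called genes, and filled symbols are genes bright on all 3 arrays of at least 1 group. The family spreads on both sides of 0, with AT4G11290 and AT3G03670 called above it and 4 genes called below.

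Further named falls lay outside these families. AT5G47350 read 77.7, 99.9 and 103 in OE flowers, against 359, 1409 and 1442 in WT flowers, so the WT array of replicate 1 lay well below the other WT arrays but above every OE array (log2 change -3.08 ± 0.45, adjusted p = 0.0027). AT3G49270 read 54.8, 21.2 and 38.4 in OE flowers, against 128, 321 and 422 in WT flowers. WT array 1 was only just bright, and OE was dim throughout (log2 change -2.40 ± 0.35, adjusted p = 0.0029). The transcription factor gene WRKY53, known from leaf senescence and defence, read 67.8, 86.0 and 59.6 in OE flowers, against 197, 228 and 185 in WT flowers. Groups were tight and apart, with all 3 OE arrays dim (log2 change -1.34 ± 0.22, adjusted p = 0.0076), and without OE array 3 the adjusted p was 0.0503. It was the 1 tested gene of 20 listed for salicylate and defence. AT2G38900, a protease inhibitor gene of the potato inhibitor I type, averaged 98.5 ± 28.5 in OE and 339 ± 104 in WT (log2 change -1.62 ± 0.31, adjusted p = 0.02). It missed the threshold without OE array 1, 2 or 3 or WT array 2 or 3 (adjusted p 0.0581 to 0.118), and likewise without the block (0.0562). AT1G65500 averaged 68.7 ± 24.1 in OE and 320.5 ± 74.8 in WT, and AT5G18470, of the mannose-binding lectin type, averaged 63.8 ± 14.3 in OE and 259 ± 112 in WT. Their log2 changes of -2.01 ± 0.40 (adjusted p = 0.024) and -1.70 ± 0.39 (adjusted p = 0.049) passed in all arrays together. Both genes were dim on all 3 OE arrays. AT1G65500 was lost without any 1 of the 6 arrays (0.0573 to 0.128) and AT5G18470 without any but WT array 1 (0.125 to 0.217), and without the block they had 0.0522 and 0.101.

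The largest rises were smaller than the largest falls, and fewer of them kept their call under other settings. Of the 15 largest falls 9 were called in every alternative setting, and of the 15 largest rises 2 were, AT4G11290 and AT2G27180. AT2G27180 read 3826, 4069 and 4978 in OE flowers, against 1425, 1768 and 2098 in WT flowers. It was bright on all arrays, and every OE array lay above every WT array by a wide gap (log2 change 1.28 ± 0.17, adjusted p = 0.0011). CES (AT1G25330), a basic helix-loop-helix transcription factor gene known from the transmitting tract of the pistil and from the brassinosteroid response, read 2226, 2476 and 2407 in OE flowers, against 1409, 1348 and 1119.9 in WT flowers. The OE arrays lay close together and above all WT arrays (log2 change 0.87 ± 0.13, adjusted p = 0.003). In a fit of the 6 arrays alone CES had an adjusted p of 0.0809. AT4G07515 read 161, 296 and 301 in OE flowers, against 25.8, 59.3 and 23.3 in WT flowers. All WT arrays were dim, and its log2 change of 2.38 ± 0.33 (adjusted p = 0.0017) was 2.84 with a pseudocount of 1 (adjusted p = 0.0551) and 1.64 with 64.

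**Figure D4:**
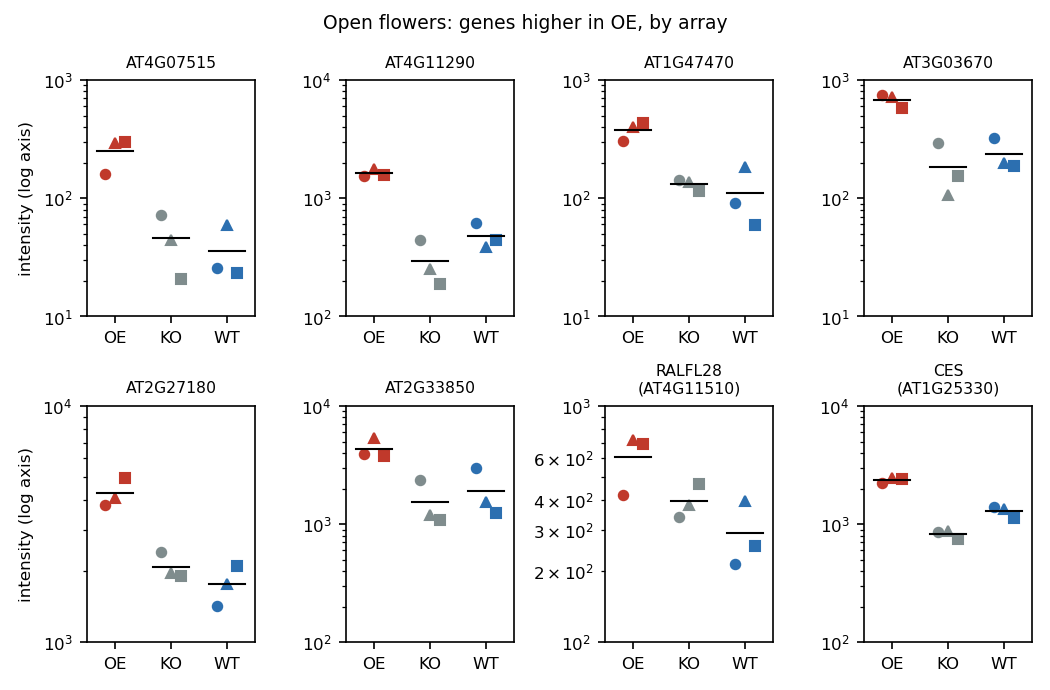
Intensity (log axis) on each array of open flowers for AT4G07515, AT4G11290, AT1G47470, AT3G03670, AT2G27180, AT2G33850, RALFL28 and CES, with OE left, KO in the middle and WT right; circles, triangles and squares are replicates 1, 2 and 3, and lines are group means of 3 arrays. In all 8 genes each OE point lies above every WT point, which was a condition for naming them.

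RALFL28, of the RALF-like family of secreted signalling peptides, read 420.2, 719 and 688 in OE flowers, against 214, 397 and 256 in WT flowers. The lowest OE array, that of replicate 1, was only just above the highest WT array, and within each replicate number OE was higher (log2 change 1.04 ± 0.21, adjusted p = 0.029). It was not called without OE array 2 or 3 or WT array 1 or 3 (adjusted p 0.078 to 0.165), and likewise without the block (0.0851). XTH33, of the xyloglucan endotransglucosylases that cut and rejoin wall xyloglucan, averaged 259 ± 29.2 in OE and 127 ± 20.1 in WT (log2 change 0.95 ± 0.21, adjusted p = 0.046). It was lost without any 1 of the 6 arrays (0.0819 to 0.2). AT3G19620, of a glycosyl hydrolase family, averaged 368 ± 36.3 in OE and 208 ± 83.6 in WT (log2 change 0.84 ± 0.17, adjusted p = 0.03). It lost its call without OE array 2 or 3 or WT array 2 or 3 (adjusted p 0.0914 to 0.18) and had 0.272 without the block. AT2G38870, a second potato inhibitor I gene that stands close to AT2G38900 on chromosome 2, averaged 1029.6 ± 169 in OE and 673 ± 41.7 in WT. It rose (log2 change 0.59 ± 0.12, adjusted p = 0.026) where AT2G38900 fell, and it missed the threshold without OE array 2 or 3 or WT array 3 (adjusted p 0.0808 to 0.153), and likewise without the block (0.0794).

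AT2G33850 was among the brightest of the rises, with 3944, 5344 and 3807 in OE flowers, against 2988, 1549.6 and 1244 in WT flowers. Every OE array was above every WT array, with the WT array of replicate 1 nearest (log2 change 1.26 ± 0.24, adjusted p = 0.019). It was not called without OE array 2 or 3 or WT array 2 or 3 (adjusted p 0.0851 to 0.123), and likewise without the block (0.0929). AT1G47470, AT5G42955 and AT2G21655 had log2 changes of 1.74, 1.74 and 1.53 (adjusted p = 0.018, 0.016 and 0.037), averaging 379.7 ± 65.8, 217 ± 28.4 and 854 ± 90.8 in OE against 111 ± 64.1, 56.6 ± 25.5 and 316 ± 189.9 in WT. Each was lost without OE array 2 or 3 or WT array 3, with adjusted p between 0.0506 and 0.192 over all arrays whose removal ended a call. The first and the third were also lost without OE array 1 or WT array 1. AT2G21655 had 0.134 without the block. AT5G42955 was dim on all 3 WT arrays and AT1G47470 on 2 of them. With a pseudocount of 1 AT1G47470, AT5G42955 and AT2G21655 also lost their calls (adjusted p = 0.233, 0.144 and 0.207). Over the alternatives the log2 change of AT5G42955 ran from 1.24 to 2.08. AT1G30795, AT3G24100 and AT5G52390 rose by 0.98, 0.97 and 0.93 on the log2 scale (adjusted p = 0.019, 0.015 and 0.029), and AT5G62200 by 0.53 (0.014). All 4 were bright on every array, at 2579 ± 129, 785 ± 127, 1489 ± 339.7 and 1368 ± 48.9 in OE against 1301 ± 131, 391 ± 42.8, 769 ± 130.1 and 943 ± 53.7 in WT. AT1G30795 was lost without OE array 1 or 3 or WT array 2 or 3 (0.0819 to 0.121), AT3G24100 without OE array 2 or 3 or WT array 2 (0.0783 to 0.104), AT5G52390 without array 2 or 3 of either genotype (0.123 to 0.179) and without the block (0.0552), and AT5G62200 without any array but WT array 1 (0.0503 to 0.0783).

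In the hormone and redox groups tied to anther opening or to the CBS-domain proteins, limma called no member over all probe sets. Only a minority of each list was on the array under a single gene name. Over all single-gene probe sets 0.767% were called, and 12.7% of all tested probe sets had an unadjusted p under 0.05. With so few genes tested per list, having none called is no result about these groups. For jasmonate synthesis 3 of 24 genes were tested and 2 had an unadjusted p under 0.05. They were JMT, which methylates jasmonate, with a log2 change of 0.78 (adjusted p = 0.173), and OPCL1, of the beta-oxidation steps, with -0.53 (adjusted p = 0.202). AIM1, a beta-oxidation gene, had 0.06. For jasmonate response 4 of 22 were tested and 1 had an unadjusted p under 0.05, the thionin gene THI2.1 with 0.35 (adjusted p = 0.232). The transcription factor genes MYC3 and MYC4 had -0.05 and -0.03, and the defensin gene PDF1.2, dim in both groups, 0.09. For ethylene 2 of 25 were tested and 0 had an unadjusted p under 0.05: the transcription factor gene EIN3 with 0.01 and the ACC oxidase gene AT1G12010, dim in both groups, with -0.08.

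Of the thioredoxin system 11 of 33 genes were tested, all of them bright. Their log2 changes lay between -0.11 and 0.42 with a median of 0.08, limma called none, and 2 had an unadjusted p under 0.05. Called were 0.767% of all single-gene probe sets, and 12.7% of all tested probe sets had an unadjusted p under 0.05. At these shares a list this small, like those below, can easily hold no call. The chloroplast y-type thioredoxin genes ty2 and TY1 averaged 2158 ± 197 and 329.8 ± 72.0 in OE against 1724 ± 386 and 241 ± 33.5 in WT (log2 changes 0.34 ± 0.11 and 0.42 ± 0.17, adjusted p = 0.169 and 0.31). AT2G04700, of the ferredoxin-thioredoxin reductase, had 0.16 (adjusted p = 0.698). Of the lignin and anther wall list 3 of 28 were tested, none was called and 1 had an unadjusted p under 0.05. That was ADPG1, a polygalacturonase gene of organ separation and anther opening, which averaged 205 ± 30.2 in OE and 123 ± 36.6 in WT (log2 change 0.69 ± 0.17, adjusted p = 0.065). HCT, of monolignol synthesis, had -0.18, and AT1G19230, of the respiratory burst oxidase family and dim in both groups, 0.25. CCR2 (AT1G80820), a cinnamoyl-CoA reductase gene of lignin synthesis outside this list, was called lower. It averaged 4.27 ± 2.45 in OE and 82.1 ± 15.9 in WT (log2 change -2.27 ± 0.27, limma adjusted p = 4.6e-04). It was dim on every array of both groups, and its log2 change ran from -4.06 to -1.09 over the alternatives. For senescence, where 3 of 12 were tested, SAG101, WRKY6 and SAG29 had -0.71, -0.40 and -0.23, limma called none and 1 had an unadjusted p under 0.05. SAG101 was dim in both groups. YLS5 (AT2G38860), outside this list, was called lower (log2 change -1.04 ± 0.18, adjusted p = 0.012) and lost its call in 6 of 17 alternatives. For floral terpene synthesis, where 3 of 9 were tested, CYP71B31, AT5G44630 and AT3G25810 had 0.74, -0.12 and 0.06, limma called none and 0 had an unadjusted p under 0.05.

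Set against buds of the same genotypes, the difference between OE and WT was of another size in open flowers for 87 probe sets (0.383%), where the stage difference is OE minus WT in open flowers less OE minus WT in buds. It was positive for 23 (0.101%) and negative for 64 (0.281%). Of the 216 probe sets called in open flowers 58 were among the 87, and 52 of the 58 were lower in OE. In buds limma called 32 probe sets between OE and WT (0.141%), 2 higher (0.00879%) and 30 lower (0.132%). The bud calls and the stage differences rest on the same bud arrays, and the open-flower calls and the stage differences on the same open-flower arrays. Among the named genes 16 passed the test of the stage difference, 12 negative and 4 positive. Some were named for passing this test, and the rest for their change in open flowers, which is part of it. These counts are therefore a description.

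AT2G43590, AT2G43620, BAN and AT3G10720 had differences of -3.64 ± 0.41, -3.42 ± 0.42, -2.94 ± 0.44 and -2.36 ± 0.24 on the log2 scale (limma adjusted p = 5.5e-04, 0.0016, 0.0072 and 2.6e-04), and these 4 were called in every alternative tried. BAN averaged 27.8 ± 9.03 in OE buds and 4.96 ± 2.67 in WT buds (log2 change 1.05), and AT2G43590 28.9 ± 18.5 and 11.5 ± 6.28 (0.65). These bud values were all dim, and they enlarge both stage differences. AT2G43620 averaged 83.7 ± 45.8 in OE buds and 137 ± 47.7 in WT buds (log2 change -0.67) and was dim on 3 of these 6 arrays. The methylesterase gene AT3G10720 was bright in buds and averaged 736 ± 9.70 in OE buds and 548 ± 62.2 in WT buds (log2 change 0.42 in buds against -1.93 in open flowers). AT2G47550 averaged 305 ± 92.7 in OE buds and 302 ± 48.9 in WT buds (stage difference -1.66 ± 0.32, adjusted p = 0.038). For these bright genes bud levels could have shown a fall. Of the 16 genes 10 were dim on all 6 bud arrays of OE and WT, 9 of them with a negative difference, so a fall could hardly show there: AT2G43590, UF3GT, AT4G15750, CHI, AT3G49270, DFR, BAN, AT4G36430 and AT5G64110. Among the rises CES averaged 661 ± 69.4 in OE buds and 736 ± 73.4 in WT buds (stage difference 1.02 ± 0.18, adjusted p = 0.025). AT2G38870 and AT5G62200 had stage differences of 0.94 and 0.68 (adjusted p = 0.025 and 0.043). Without the block the count of stage differences was 28, and 10 of the 16 named genes were no longer called. Of the 12 genes outside the first 4, UF3GT kept its call with any 1 array left out, and the other 11 all lost it without WT array 3 of open flowers (adjusted p 0.0751 to 0.169) and without OE array 3 of open flowers (0.0624 to 0.122).

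**Figure D5:**
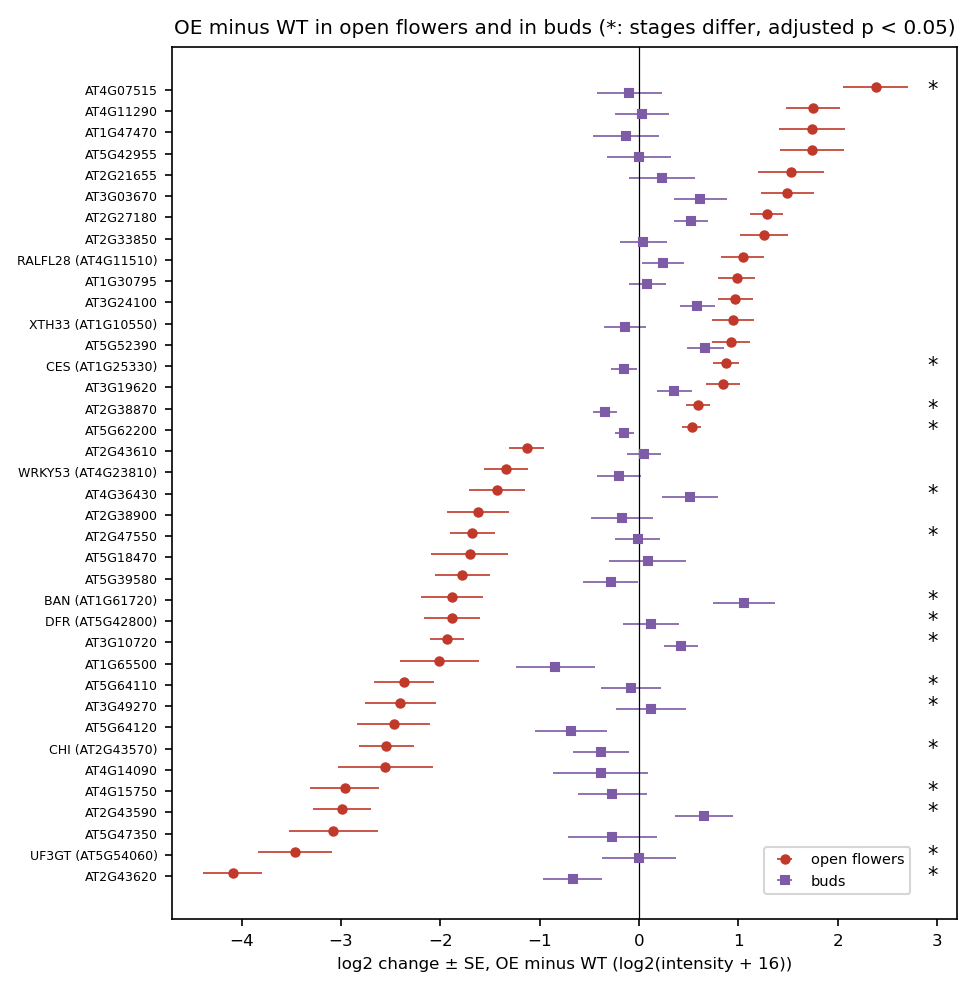
Log2 change, OE minus WT, in open flowers (red circles) and in buds (purple squares) for the 38 named genes called in open flowers, 1 per row; an asterisk marks the 16 whose stage difference passed limma's test at an adjusted p under 0.05. Red circles of the falls lie far left of their purple squares for AT2G43590, UF3GT, AT2G43620 and BAN.

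Against open flowers of the atlej1 mutant, OE differed at 607 probe sets (2.67%), 199 higher (0.875%) and 408 lower (1.79%). This comparison uses the same OE arrays as the comparison with WT, so they are not independent. Its median log2 change over all probe sets was -0.056, and the split turned with array scaling: centring on the medians gave 536 higher and 255 lower, and quantile normalization 200 higher and 261 lower. For some of the named genes the KO level is set beside those of OE and WT. UF3GT averaged 29.3 ± 7.75 in OE, 443 ± 145 in KO and 527 ± 252 in WT (OE minus KO -3.31 ± 0.37, adjusted p = 2.1e-04). AT4G15750 averaged 426 ± 162 in OE, 2485 ± 536 in KO and 3718 ± 2082 in WT (OE minus KO -2.55 ± 0.35, adjusted p = 9.6e-04). CES averaged 2369.6 ± 129 in OE, 829.8 ± 64.9 in KO and 1292 ± 152 in WT (OE minus KO 1.5 ± 0.13, adjusted p = 1.3e-05). AT4G11290 averaged 1630.3 ± 117 in OE, 294 ± 131 in KO and 482 ± 116 in WT (OE minus KO 2.49 ± 0.27, adjusted p = 1.6e-04). Among the 15 largest rises KO also averaged below WT in AT3G03670, AT2G33850, AT2G21655 and AT1G30795. It averaged above WT in AT4G07515, AT1G47470, AT5G42955, AT2G27180, RALFL28, AT3G24100, XTH33 and AT5G52390, and close to it in AT3G19620. KO against WT was not tested here. AT5G42955, RALFL28, AT3G24100, XTH33, AT5G52390 and AT2G38870, higher in OE than in WT, did not pass against KO (adjusted p = 0.063, 0.164, 0.209, 0.053, 0.089 and 0.094).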

How the data were processed

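RNA of 18 flower samples was measured on ATH1 arrays, 1 sample per array, in 6 groups of 3, which the labels give as biological replicates. The authors' deposited values are linear intensities of 22810 probe sets, made with software not given in the sources used here. On each array the mean of the values between the 2nd and the 98th percentile came to 499.82 to 499.85, a common scaled level. No detection flags were used. The number of arrays limits the precision.

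Each deposited value was turned into log2(intensity + 16), which understates changes of dim probe sets. Left out were 64 control probe sets and 1 with an empty cell. The other 22745 were fitted with limma 3.58.1 (R 4.3.3, statmod 1.5.0) over all 18 arrays, with 6 group means, the replicate number as an additive block, 10 residual degrees of freedom and an intensity trend. P-values were adjusted by Benjamini-Hochberg over all probe sets of a comparison and called under 0.05. The adjusted p-values printed are limma's. Log2 changes carry the standard error of the fit and mean intensities the SD over 3 arrays. The fit was tested on simulated data. Figures were drawn with matplotlib 3.10.9.

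Same-numbered OE and WT arrays of open flowers deviated together from their group means with correlations of 0.265, 0.145 and 0.051 over all probe sets, and 0.406, 0.270 and 0.134 over the 15110 brighter ones. Differently numbered pairs that held an array 1 had -0.192, -0.120, -0.192 and -0.097 over all probe sets. OE array 2 with WT array 3 had 0.080, and OE array 3 with WT array 2 had 0.064, both above the 0.051 of replicate 3. Pairing is thus not settled, and the block was used because the comparison is defined with it.

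Named are the 15 largest falls and rises among called single-gene probe sets whose groups do not overlap and that are bright on all 3 arrays of a group, up to 8 stage differences of each sign by the same conditions, and the called members of each list, or else up to 3 with the smallest p. Other genes, among them ChiC, AT5MAT, ATPMEPCRB, the uncalled flavonoid genes and the 3 uncalled peroxidase genes, were chosen after their values were seen. Members, 16 gene lists and this rule were chosen with earlier results of these data known, and 3 further lists after the values were seen. The platform annotation gave the names, which were matched to TAIR10.1 locus tags. It lists 1 gene for 13513 probe sets and several for 503, and 8730 are unnamed here. Alternatives were no block, a random block, the 6 arrays alone, pseudocounts of 1 and 64, a filter on dim probe sets, quantile normalization, centring, a robust fit, no trend, replicates 2 and 3 alone, and each array left out.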

Additional observations from a re-analysis of the deposited data

Results flagged for a closer look

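For 16 named genes the difference between OE and WT in open flowers differed from that in buds by limma's test of the stage difference itself (adjusted over all probe sets). Some of the 16 were named for passing this test. All values are log2 differences, OE minus WT in open flowers less OE minus WT in buds. Negative differences were those of the chitinase-family genes AT2G43590 (-3.64), AT2G43620 (-3.42) and CHI (-2.16), of the flavonoid genes UF3GT (-3.46), BAN (-2.94) and DFR (-2.01), and of the pectin genes AT4G15750 (-2.69), AT3G10720 (-2.36) and AT2G47550 (-1.66). The peroxidase genes AT5G64110 (-2.29) and AT4G36430 (-1.94) and the gene AT3G49270 (-2.52) were negative too. Positive differences were those of AT4G07515 (2.48), the transcription factor gene CES (1.02), the protease inhibitor gene AT2G38870 (0.94) and AT5G62200 (0.68). AT2G43590, AT2G43620, BAN and AT3G10720 were called in all alternatives tried, with AT2G43590 and BAN dim on all bud arrays of OE and WT. The calls of the other 12 were lost in at least 2, from 2 of 23 for UF3GT to 19 of 23 for AT4G36430.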

How the results depend on the processing

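The count of 216 between OE and WT open flowers stayed within 1.5 times under the random block, both pseudocounts, the filter, quantile normalization, centring and the robust fit. It was 120 without the block, all of them among the 216, 138 without the intensity trend, 108 in replicates 2 and 3, 53 in the 6 arrays alone, where 2 residual degrees of freedom remain, and 87 to 195 with 1 array left out. The 87 stage differences became 28, 48, 20 and 37 under the same settings, and 29 to 125 with 1 array left out. The 607 calls against KO became 234, 332, 194 and 160, and 142 to 427. The 32 calls in buds became 13 without the block, 11 in replicates 2 and 3, 5 with the 2 groups alone, 71 with the filter, 51 with the robust fit, and 9 to 37 with 1 array left out.

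Over the 58 probe sets named by the rule and the lists there were 982 alternative values. Of these 816 kept direction and side of the threshold, 145 kept direction and lost the call, 3 gained one (ADPG1) and 18 changed sign. All sign changes were of genes not called. AIM1 had -0.017 with quantile normalization, and in replicates 2 and 3 PDF1.2 had -0.082 and SAG29 0.098. With 1 array left out the log2 change ran from -0.043 to 0.16 for AIM1, -0.12 to 0.062 for MYC3, -0.024 to 0.26 for PDF1.2, -0.19 to 0.060 for AT1G12010, -0.039 to 0.067 for EIN3, -0.012 to 0.45 for AT1G19230, -0.38 to 0.032 for SAG29, -0.25 to 0.030 for AT5G44630 and -0.35 to 0.44 for AT3G25810. The replicate block changed the call of 9 of 38 named genes called in open flowers, whose values without it stand beside them, and of no other among the 38. Alternatives for single stage differences and for genes chosen after their values were seen were added after seeing the data. Dim levels in OE limit the size of 75 of the 151 falls. The cause of these changes was not tested.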

Other observations

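Groups of genes made after their values were seen add 3 descriptions, with no test of the groups. Of 41 genes between AT3G28750 and AT3G28980 on chromosome 3, a stretch with many genes of anthers, 14 were tested, and 4 fell in open OE flowers while none rose (28.6%, against 0.767% of all single-gene probe sets). The count was 2 without OE array 1 or WT array 1, 1 without OE array 2 or 3 or WT array 2, and 0 by limma without WT array 3, where 8 members had an unadjusted p under 0.05. AT3G28790 read 1478, 1517 and 1653 in OE flowers, against 2341, 2873 and 3978 in WT flowers (log2 change -0.94 ± 0.16, limma adjusted p = 0.0084). AT3G28780 read 331, 282 and 314 in OE flowers, against 671, 673 and 693 in WT flowers (log2 change -1.10 ± 0.19, adjusted p = 0.012). In both genes all OE arrays lay below all WT arrays. AT3G28790 lost its call without OE array 3 or WT array 3 (adjusted p 0.0503 to 0.0624), and AT3G28780 missed the threshold without OE array 2 or 3 or WT array 2 or 3 (adjusted p 0.0516 to 0.0628). AT3G28830 and AT3G28980 averaged 2643 ± 110.2 and 1380.4 ± 432 in OE against 4584 ± 634 and 2705 ± 279.8 in WT (log2 changes -0.78 and -1.0, adjusted p = 0.036 and 0.021). AT3G28830 lost its call without any 1 of the 6 arrays and AT3G28980 without any but OE array 3 (adjusted p 0.0601 to 0.184). The member with the highest log2 change, AT3G28750, had 0.62 and did not pass (adjusted p = 0.124). The stage difference passed for AT3G28780 (-1.58, adjusted p = 0.022) and AT3G28790 (-1.13, adjusted p = 0.044). Of 23 alternatives 10 and 16 ended these stage calls, where the highest adjusted p was 0.189 and 0.186. Leaving out any 1 of the OE arrays of open flowers, or WT array 2 or 3, ended both. AT3G28790 was also lost without the block (0.0864).

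Of the auxin-responsive IAA, GH3 and SAUR families 11 of 45 genes were tested, 1 rose and 2 fell (27.3%, against 0.767% of all single-gene probe sets). The count was 2 without WT array 1, 1 without any 1 of the OE arrays or WT array 2, and 0 by limma without WT array 3, where 4 members had an unadjusted p under 0.05. GH3.3, which joins auxin to amino acids, read 599, 349 and 485 in OE flowers, against 998, 1064 and 1264 in WT flowers (log2 change -1.21 ± 0.21, limma adjusted p = 0.012). It was not called without OE array 2 or WT array 2 or 3 (adjusted p 0.0636 to 0.0949). IAA31 fell and IAA29 rose, both at dim levels. IAA31 lost its call without OE array 1 or 3 or WT array 3 (adjusted p 0.0519 to 0.0919) and IAA29 missed the threshold without OE array 1, 2 or 3 or WT array 1, 2 or 3 (adjusted p 0.0616 to 0.18). With pseudocounts of 1 and 64 IAA31 had -3.27 and -0.94 and IAA29 2.60 and 0.41. HAT2, a homeodomain-leucine zipper gene that auxin induces, read 416, 312 and 291 in OE flowers, against 825, 586 and 576 in WT flowers (log2 change -0.93 ± 0.12, adjusted p = 0.0011). Its groups lay apart, and its stage difference was -1.23 (adjusted p = 0.0042). Without the block both calls were lost, with an adjusted p of 0.116 in open flowers and 0.247 for the stage difference. ARL, an ARGOS-like gene of organ growth, averaged 466 ± 55.9 in OE and 1250.5 ± 396 in WT (log2 change -1.36 ± 0.26, adjusted p = 0.019). It was not called without OE array 1, 2 or 3 or WT array 1 or 2 (adjusted p 0.0597 to 0.113).

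SWEET13, a sucrose transporter gene, was the 1 single-gene probe set called in both open flowers and buds. In open flowers it read 1089.6, 843 and 531 in OE flowers, against 2020.1, 1118 and 1880.4 in WT flowers (log2 change -1.02 ± 0.19, adjusted p = 0.017), and in buds its log2 change was -1.37 ± 0.19 (adjusted p = 0.0057). The highest OE array lay just below the lowest WT array. In open flowers it lost its call without OE array 3 or WT array 3 (adjusted p 0.106 to 0.112), and likewise without the block (0.11).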
